A study of Homo sapiens with 48 samples.

Results

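AHNAK and KIAA1549L are 2 of the 19923 protein-coding genes counted in 48 poly(A) RNA-seq libraries of the human neuroblastoma cell lines Kelly and NGP. They were taken as the rows of the count files with those gene names, and they had been chosen by their measured level. Both are long transcripts picked for being higher under STM2457 than under DMSO in both lines and after both treatment durations. The choice is read here as made on levels before actinomycin D, but it may also have used the later times. STM2457 is a small-molecule inhibitor of METTL3, the enzyme that writes N6-methyladenosine (m6A) into messenger RNA. Kelly and NGP, both labelled wild type and MYCN-amplified, were kept for 3 or 6 days in 8 µM STM2457 or in DMSO as the control and then received 10 µg/ml actinomycin D, which blocks transcription, for 0, 3 or 6 h. Each of the 24 groups so formed held 2 libraries. The labels do not say whether these came from separate cultures, nor whether the 3 actinomycin D times of a group shared one, so the p-values measure the spread between libraries, which may be technical.

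AHNAK encodes a giant scaffold protein that lies under the plasma membrane, where it binds the annexin A2 and S100A10 complex and calcium channel subunits. It is known as a gene kept low in many neuroblastomas and high in flattened, mesenchymal cells. KIAA1549L encodes a membrane protein of little known function, related to KIAA1549, which is known as the fusion partner of BRAF in pilocytic astrocytoma. The m6A mark is placed on a short consensus that often holds GGAC, mostly in long internal exons and near stop codons, and it is known to shorten the life of many transcripts.

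The 2 genes differ in how their length is built, as read from the exon intervals listed in the count files on hg38. AHNAK, on the minus strand of chromosome 11 (chr11:62433542-62556235), had 10 merged exons with 19466 bases in all, against medians of 9 exons and 4284 bases over all genes. A single exon (chr11:62515902-62534074) of 18173 bases made up 93.4% of that length and ranked 22nd of 19923 genes by longest exon. It held 17328 of the 17670 coding bases of the reference transcript (98.1%; GENCODE 44) and the stop codon. KIAA1549L, on the plus strand of chromosome 11 (chr11:33376083-33674102), had 21 merged exons with 13523 bases spread over a span of 298020 bases. Its longest exon (chr11:33667873-33674102) was the last, with 6230 bases (46.1% of the exon length) of which 279 were coding, and the next longest had 2553 bases of which 2535 were coding. The long exon of AHNAK was thus nearly all coding, and that of KIAA1549L nearly all 3′ untranslated in the reference transcript. Neither gene shared an exon base with another counted gene, and no run of 24 bases was shared between AHNAK and AHNAK2 or between KIAA1549L and KIAA1549.

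**Figure D1:**
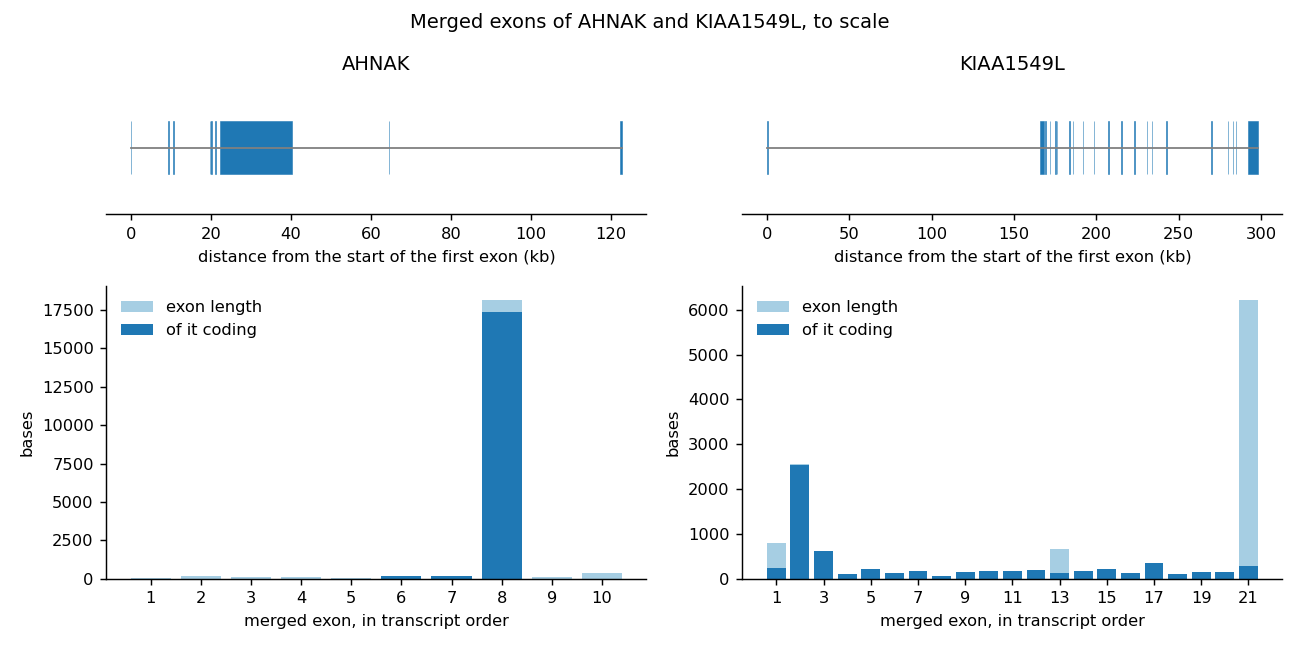
Merged exons of both genes. The upper maps give exon positions as distance from the start of the first exon (kb, to scale) and the lower bars give the bases of each exon in transcript order, with the coding part in dark blue. One exon holds 93.4% of AHNAK, while KIAA1549L has 21 exons of which the last is the longest.

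The letters GGAC were counted on the sense strand of the merged exons. AHNAK held 135 (6.94 per kb, higher than in 93.3% of genes) and KIAA1549L 55 (4.07 per kb, higher than in 60.0%), against a median of 3.55 per kb over all genes. On the opposite strand the counts were 102 and 55. GGAC occurs at least once in 99.1% of genes, so its presence sets neither gene apart. Below are the 150 bases with most GGAC (in capitals) in the largest coding segment of each gene, shown because they are the densest stretches of the motif there. The AHNAK stretch is chr11:62529040-62529189 on the minus strand with 5 copies, and the KIAA1549L stretch is chr11:33541907-33542056 on the plus strand with 3. Over the exons of all genes, 564689 stretches of 150 bases were taken end to end. Of these, 37.5% held at least 1 copy, 2.42% at least 3 and 0.106% at least 5. The 2 stretches shown were picked as the densest over every start position in their segments. The shares come from stretches not picked by count, so they do not say how rare the shown ones are. A match is a description of the letters and not a mapped m6A site.
AHNAK: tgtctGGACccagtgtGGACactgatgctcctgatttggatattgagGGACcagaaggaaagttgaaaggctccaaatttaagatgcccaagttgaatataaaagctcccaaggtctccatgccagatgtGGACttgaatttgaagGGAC
KIAA1549L: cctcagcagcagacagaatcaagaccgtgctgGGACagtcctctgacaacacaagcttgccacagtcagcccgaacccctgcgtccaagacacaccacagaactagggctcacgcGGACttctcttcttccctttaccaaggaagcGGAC

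The large AHNAK exon is repetitive. In its coding segment 27.0% of the 24-base runs occurred more than once, as did 9.36% of the 50-base and 1.17% of the 100-base runs, while the largest coding segment of KIAA1549L (2535 bases) had no repeated 24-base run. The commonest 24-base run of AHNAK occurred 12 times, with a median spacing of 1131 bases. The first 4 copies in transcript order are shown with their flanks, the repeated run in capitals, because fragments from such copies can align to more than one place. They lie at chr11:62531768-62531827, chr11:62530637-62530696, chr11:62529869-62529928 and chr11:62528255-62528314, all on the minus strand. The effect of the repeats on the AHNAK counts was not tested.
copy 1: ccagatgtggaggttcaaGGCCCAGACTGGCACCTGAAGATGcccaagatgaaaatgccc
copy 2: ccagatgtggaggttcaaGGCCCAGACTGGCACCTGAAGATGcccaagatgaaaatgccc
copy 3: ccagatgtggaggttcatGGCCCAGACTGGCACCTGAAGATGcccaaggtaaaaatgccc
copy 4: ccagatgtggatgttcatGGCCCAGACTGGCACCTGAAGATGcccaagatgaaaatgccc

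The libraries held 11139550 to 21942238 fragments in genes, and the ERCC spike-ins, synthetic RNAs added to the samples, took 0.265 to 0.671% of fragments. The summed level of 9 adrenergic neuroblastoma markers was 9167 to 12509 CPM (fragments scaled to a common library total) in Kelly and 2087 to 4019 in NGP. That of 8 mesenchymal markers was 96.8 to 252 CPM in Kelly and 227 to 431 CPM in NGP, and the leukocyte and endothelial markers stayed at or below 4.88 CPM. AHNAK had 124 to 1964 fragments per library and KIAA1549L 693 to 2870.

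Levels below are CPM on library sizes scaled by TMM, which sets the typical gene to no change. Before actinomycin D, the AHNAK level in 3-day Kelly was 62.6 and 61.0 CPM in the DMSO libraries and 98.1 and 109.7 CPM under STM2457. At 6 days in Kelly it was 76.6 and 72.2 CPM in DMSO and 96.6 and 111.1 CPM under STM2457. In 3-day NGP it was 47.6 and 49.8 CPM in DMSO and 104.0 and 107.6 CPM under STM2457. The groups did not overlap in any of these comparisons, for which the gene had been picked. In 6-day NGP AHNAK was at 12.1 and 10.3 CPM in DMSO and 39.6 and 41.9 CPM under STM2457, so both treatments were far below the 3-day libraries of the same line.

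KIAA1549L had a narrower range. In 3-day Kelly its level was 75.4 and 62.5 CPM in DMSO and 110.7 and 106.7 CPM under STM2457, and at 6 days 63.1 and 63.7 CPM in DMSO and 103.4 and 109.2 CPM under STM2457. In 3-day NGP it was 80.4 and 96.7 CPM in DMSO and 147.2 and 150.2 CPM under STM2457, and at 6 days 65.1 and 69.3 CPM in DMSO and 118.0 and 127.3 CPM under STM2457. Every STM2457 library was above every DMSO library of its line and duration at 0 h, the difference for which the gene had been picked.

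Per length, KIAA1549L was the more abundant of the 2. In DMSO at 0 h its mean FPKM (CPM per kb of exon) was 5.10 ± 0.67, 4.69 ± 0.030, 6.55 ± 0.85 and 4.97 ± 0.22 (SD, n = 2) in 3-day and 6-day Kelly and 3-day and 6-day NGP. The AHNAK values in that order were 3.18 ± 0.059, 3.82 ± 0.16, 2.50 ± 0.083 and 0.573 ± 0.066 FPKM (SD, n = 2). AHNAK thus lay near the middle of the tested genes by FPKM in 3 of the 4 conditions, with 49.8 to 55.7% of genes below it on average, and low in 6-day NGP, with 32.8% of genes below it.

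**Figure D2:**
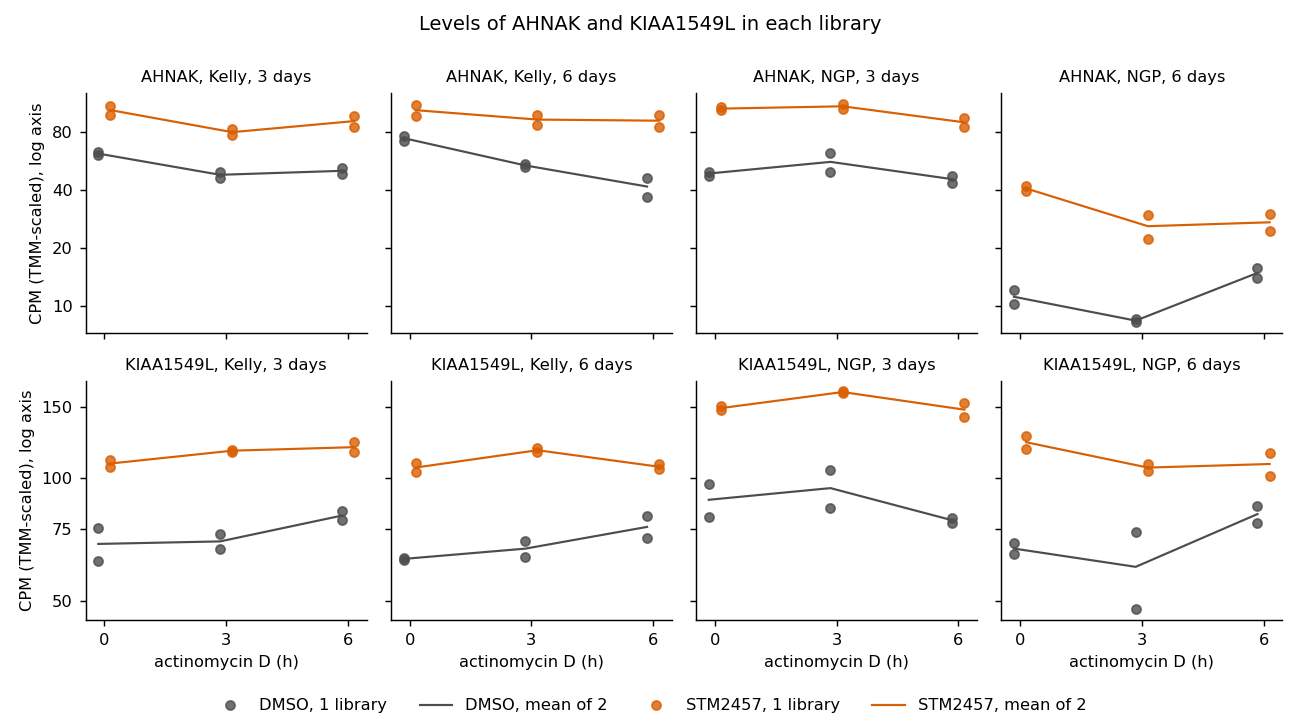
Level of AHNAK (upper row) and KIAA1549L (lower row) in each library, as TMM-scaled CPM on a log axis against hours of actinomycin D. Each point is 1 library and the lines join the means of 2. AHNAK in 6-day NGP sits far below the other panels, at 11.2 CPM in DMSO at 0 h.

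The fitted difference of STM2457 from DMSO at 0 h, which is what the genes were picked for, is given as a description. For AHNAK the log2 difference was 0.74 ± 0.14 (SE), 0.50 ± 0.14, 1.11 ± 0.16 and 1.87 ± 0.18 in 3-day and 6-day Kelly and 3-day and 6-day NGP. For KIAA1549L it was 0.65 ± 0.13, 0.77 ± 0.13, 0.74 ± 0.13 and 0.87 ± 0.13 in the same order. Of all genes tested, 0.579%, 2.7%, 1.25% and 4.45% were called higher at 0 h in these comparisons (edgeR quasi-likelihood test, Benjamini-Hochberg adjusted p under 0.05). Among the 14314 genes tested in both lines, 19 were called higher in all 4, and AHNAK was the 2nd and KIAA1549L the 7th longest of them by exon length. Both were picked as long and higher, so their place in this set describes the choice and is no finding. KIAA1549 was also among the 19.

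Both genes were also higher under STM2457 at 3 and 6 h of actinomycin D, in libraries other than the 0 h ones. This is no independent test of the choice, and the p-values given for it below add no support to it. RNA at these times is what was left of the 0 h RNA, and the times may share cultures. Earlier results of these data were also known when the genes were chosen. At 6 h the AHNAK level in 3-day Kelly was 48.5 and 52.1 CPM in DMSO and 84.9 and 97.3 CPM under STM2457, and in 6-day Kelly 46.4 and 37.0 CPM in DMSO and 98.0 and 85.2 CPM under STM2457. In 3-day NGP it was 43.6 and 47.4 CPM in DMSO and 85.0 and 94.6 CPM under STM2457, and in 6-day NGP 15.7 and 14.0 CPM in DMSO and 30.0 and 24.4 CPM under STM2457. At 6 h, as at 3 h, both STM2457 libraries lay above both DMSO libraries in each line and duration. With 2 libraries on each side this is a description, and the share of all genes separated in this way was not counted. Over the 2 times together, AHNAK rose by a log2 difference of 0.78 ± 0.10 (SE) in 3-day Kelly, 0.98 ± 0.10 in 6-day Kelly, 0.96 ± 0.11 in 3-day NGP and 1.26 ± 0.13 in 6-day NGP. These are 1.72, 1.97, 1.94 and 2.40 times the DMSO level. The adjusted p-values (edgeR) were 1.231e-10, 1.187e-15, 2.663e-10 and 3.440e-13, and the backgrounds of genes called higher were 5.96%, 8.03%, 8.38% and 8.31% of those tested. In bulk RNA, more cells that express a gene and more of its RNA per cell cannot be told apart.

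KIAA1549L rose by 0.64 ± 0.092, 0.66 ± 0.092, 0.83 ± 0.088 and 0.62 ± 0.089 (log2, SE) in 3-day and 6-day Kelly and 3-day and 6-day NGP. These are 1.56, 1.58, 1.78 and 1.53 times the DMSO level, with adjusted p-values (edgeR) of 5.770e-09, 1.091e-09, 3.778e-12 and 6.372e-08. The STM2457 libraries were again above the DMSO libraries in every group, with no count of such separation over all genes. For example, at 6 h in 6-day NGP the level was 85.7 and 77.7 CPM in DMSO and 115.5 and 101.3 CPM under STM2457, and at 3 h in 3-day NGP 104.8 and 84.4 CPM in DMSO and 162.3 and 163.4 CPM under STM2457. Each of these 8 tested differences kept its direction and its call under every alternative of processing, including leaving out any 1 library. Spike-in scaling put the median of all genes at 0.27, 0.33, 0.080 and 0.22 (log2) in the 4 conditions, against 0.060, 0.015, -0.0037 and 0 with TMM, and moved the share of calls that were higher from 43.7%, 57.3%, 44.2% and 53.2% to 89.9%, 95.3%, 68.6% and 92.4%. Relative to that median, AHNAK was at 0.73, 0.96, 0.96 and 1.27 and KIAA1549L at 0.58, 0.65, 0.84 and 0.62 on spike-in scaling.

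The size of the difference was compared between lines and durations in the same libraries. For AHNAK the log2 difference at 6 days minus that at 3 days was 0.19 (95% interval -0.094 to 0.48) in Kelly and 0.31 (-0.031 to 0.65) in NGP, and that in NGP minus that in Kelly was 0.17 (-0.12 to 0.47) at 3 days and 0.29 (-0.022 to 0.60) at 6 days. For KIAA1549L the values between durations were 0.022 (-0.23 to 0.28) in Kelly and -0.21 (-0.46 to 0.037) in NGP, and those between lines 0.19 (-0.059 to 0.45) at 3 days and -0.040 (-0.29 to 0.21) at 6 days. None of these 8 passed the test (edgeR adjusted p 0.355 to 1.00). The shares of genes called in either direction were 6.82% and 5.56% between durations in Kelly and NGP, and 1.78% and 3.95% between lines at 3 and 6 days.

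**Figure D3:**
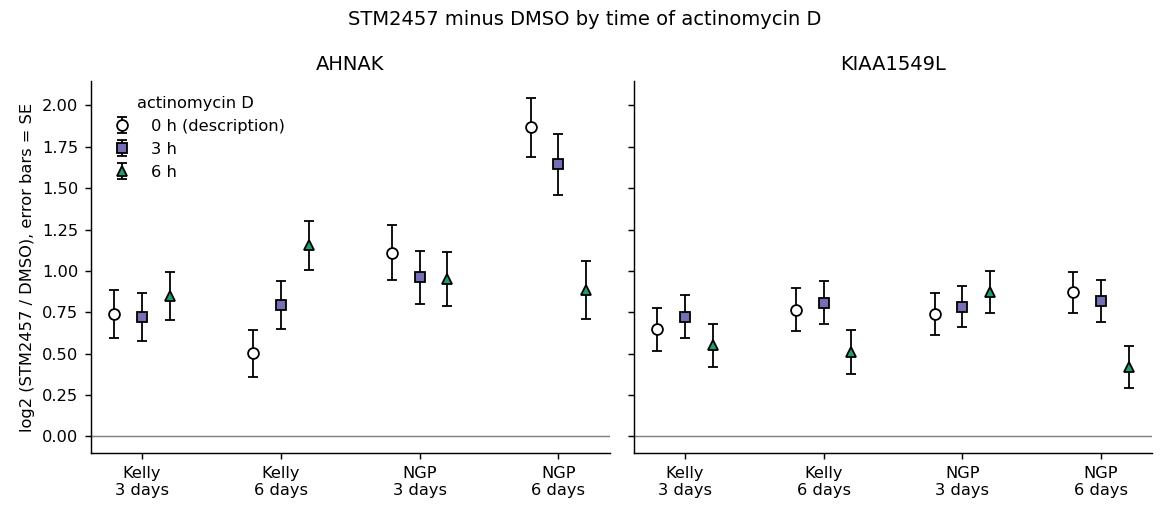
STM2457 minus DMSO as log2 difference (error bars, SE) for each line and duration, at 0 h (open circles, the values the genes were picked for), 3 h (squares) and 6 h (triangles) of actinomycin D. All 24 points lie above 0, and the 6 h point of AHNAK is the highest of its 3 in 6-day Kelly and the lowest in 6-day NGP.

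Whether slower loss after transcription was blocked went along with the higher level was asked from the actinomycin D series. On spike-in counts, which keep a loss shared by all genes, AHNAK in 6-day Kelly had 45.4% of its 0 h level left at 3 h and 23.0% at 6 h in DMSO, and 75.6% and 58.7% under STM2457. The median over all genes in those groups was 61.0% and 41.5% in DMSO and 82.4% and 67.8% under STM2457, so the typical gene also had more left under STM2457. In 3-day Kelly AHNAK had 60.4% left at 6 h in DMSO and 49.1% under STM2457, and in 3-day NGP 53.2% and 52.7%. In 6-day NGP 62.4% was left in DMSO and 42.3% under STM2457, against medians over all genes of 44.9% and 59.8%. At 3 h the AHNAK shares in DMSO and under STM2457 were 52.3% and 52.3% in 3-day Kelly. They were 87.3% and 69.8% in 3-day NGP, and 53.9% and 49.6% in 6-day NGP. The DMSO share thus rose from 3 to 6 h in 3-day Kelly and 6-day NGP. On spike-in scaling at 6 h, more AHNAK was thus left under STM2457 in 6-day Kelly and less or about as much in the others, and the sign in 3-day Kelly depended on the scaling, as given below.

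KIAA1549L at 6 h had 87.1% of its spike-in scaled 0 h level left in DMSO and 61.3% under STM2457 in 3-day Kelly, and 49.2% and 67.0% in 6-day Kelly. In NGP it had 50.8% and 61.6% left at 3 days and 57.0% and 56.1% at 6 days. At 3 h the shares in DMSO and under STM2457 were 68.2% and 73.1% in 3-day Kelly and 66.7% and 93.3% in 6-day Kelly. In NGP they were 81.2% and 74.4% at 3 days and 65.1% and 67.5% at 6 days. The order of the treatments turned between 3 and 6 h in 3-day Kelly and in NGP at both durations. In 3-day Kelly the DMSO share rose from 3 to 6 h. The median over all genes at 6 h was 71.1% in DMSO and 56.4% under STM2457 in 3-day Kelly, and it was higher under STM2457 in the other conditions, at 41.5% against 67.8% in 6-day Kelly, 54.8% against 62.2% in 3-day NGP and 44.9% against 59.8% in 6-day NGP. These percentages are ratios of means of 2 libraries and contain the 0 h values by which the genes were picked, so they are given with no test.

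**Figure D4:**
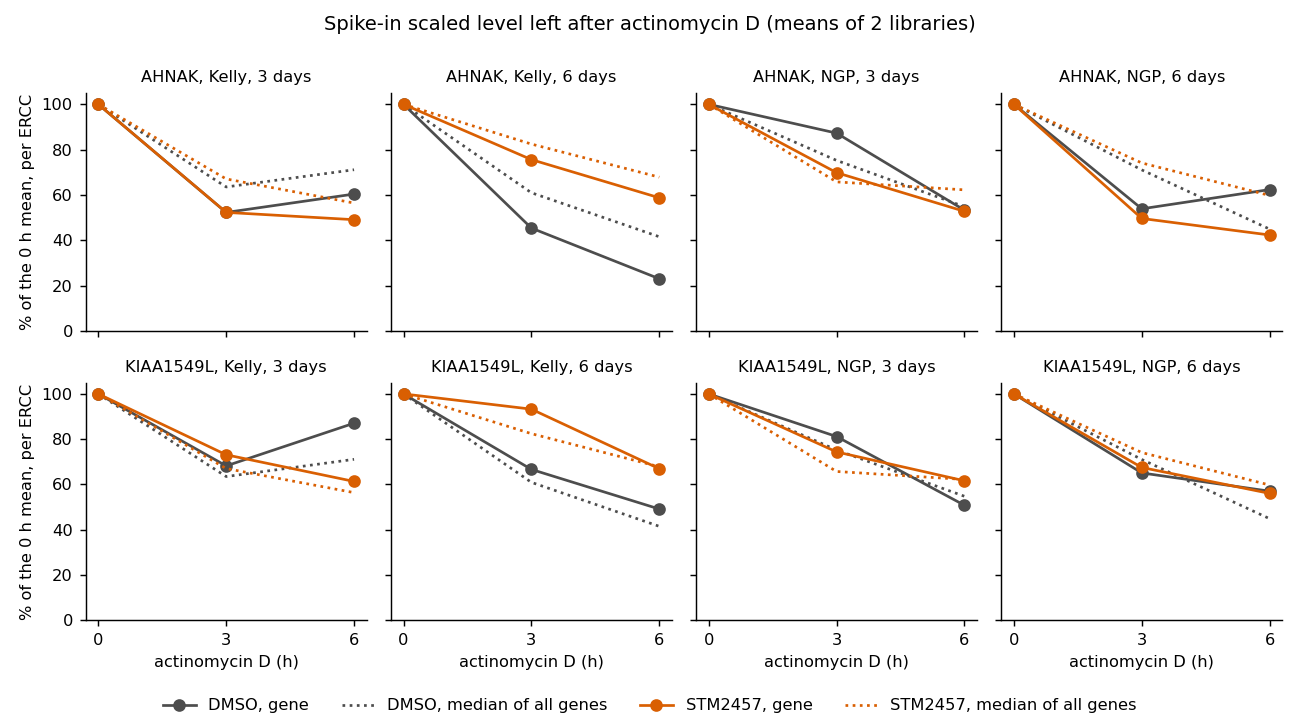
Share of the 0 h level left after actinomycin D, as fragments per ERCC fragment (means of 2 libraries, %), for AHNAK (upper row) and KIAA1549L (lower row), with the median over all tested genes as dotted lines. AHNAK had 23.0% left in DMSO in 6-day Kelly, while its STM2457 curve lies below DMSO at 6 h in 6-day NGP.

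Relative to the typical gene (TMM scaling), the change from 0 to 6 h was also described. The log2 change of AHNAK was -0.29, -0.84, -0.11 and 0.37 in DMSO (the last was -0.68 on spike-in scaling) and -0.19, -0.19, -0.27 and -0.61 under STM2457, in 3-day and 6-day Kelly and 3-day and 6-day NGP. The difference of these changes, positive where less was lost under STM2457, was 0.11 ± 0.20 (SE), 0.65 ± 0.20, -0.16 ± 0.23 and -0.98 ± 0.25. Its sign was therefore opposite in the 2 lines at 6 days. On spike-in scaling the fitted values were -0.30, 1.35, -0.014 and -0.56, so that of 3-day Kelly turned, while scaling to long-lived transcripts left it at 0.16. For KIAA1549L the difference was -0.10 ± 0.18, -0.26 ± 0.18, 0.13 ± 0.18 and -0.45 ± 0.18 in the same order, and on spike-in scaling -0.50, 0.44, 0.28 and -0.025.

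From 3 to 6 h, with no 0 h library in the comparison, the difference in change between STM2457 and DMSO could be tested. On TMM scaling it was for AHNAK 0.13 (95% interval -0.28 to 0.53) in 3-day Kelly, 0.36 (-0.044 to 0.76) in 6-day Kelly, -0.012 (-0.47 to 0.44) in 3-day NGP and -0.76 (-1.26 to -0.26) in 6-day NGP. For KIAA1549L it was -0.17 (-0.54 to 0.19), -0.30 (-0.66 to 0.065), 0.090 (-0.26 to 0.44) and -0.40 (-0.75 to -0.044). None of the 8 passed the test after adjustment, with edgeR adjusted p-values of 0.146 for AHNAK and 0.393 for KIAA1549L in 6-day NGP and 0.790 to 1.00 elsewhere. On spike-in scaling the AHNAK values were -0.30, 0.62, 0.31 and -0.44, so the direction turned at 3 days in both lines, and none was called. Those of KIAA1549L were -0.60, -0.039, 0.41 and -0.073, of which the first, in 3-day Kelly, was called (edgeR adjusted p = 0.0145). In 3-day Kelly in DMSO the spike-in scaled median over all genes rose, from 63.5% of 0 h at 3 h to 71.1% at 6 h. Under STM2457 it fell there, from 67.0% to 56.4%. The part of this rise in the call was not tested. On TMM scaling few genes were called: 0.0895%, 0.0895%, 0.0887% and 1.43% of all genes in the 4 conditions. Spike-in scaling called 2320 of 16759 genes in 3-day Kelly. For AHNAK in 6-day NGP DESeq2 gave an adjusted p of 0.0395. For KIAA1549L a call appeared in 6-day NGP without the first 3 h DMSO library (log2 -0.75, edgeR adjusted p = 0.0172).

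The 2 lines were set against each other directly, in a comparison added after these values had been seen. At 6 days the AHNAK difference from 3 to 6 h in NGP minus that in Kelly was -1.10 on the log2 scale (95% interval -1.73 to -0.48, edgeR adjusted p = 0.0955), which did not pass, and at 3 days the value was -0.10 (-0.69 to 0.49), or 0.61 and not called on spike-in scaling. DESeq2 gave an adjusted p of 0.0116 at 6 days. Leaving out the first Kelly DMSO library at 6 h or the second NGP STM2457 library at 3 h gave adjusted p-values of 0.0404 and 0.0451 (edgeR). For KIAA1549L the values were 0.30 (-0.20 to 0.81) at 3 days, which spike-in scaling put at 1.01 with an edgeR adjusted p of 0.00340, and -0.085 (-0.59 to 0.42) at 6 days. The spike-in values at 3 days contain the 3-day Kelly DMSO change, where the median over all genes rose from 3 to 6 h. On TMM scaling the shares of all genes called were 0.121% at 3 days and 0.571% at 6 days. At 3 days this was 21 genes, and the number reached 3622 of 17343 among the alternatives of processing.

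Within a treatment, the change from 3 to 6 h relative to the typical gene (TMM scaling) passed the test in 6-day NGP in DMSO only, among the 8 changes of each gene. AHNAK there was 8.3 and 8.5 CPM at 3 h and 15.7 and 14.0 CPM at 6 h, a log2 change of 0.81 ± 0.19 (SE; edgeR adjusted p = 8.501e-04), and KIAA1549L was 73.6 and 47.6 CPM at 3 h and 85.7 and 77.7 CPM at 6 h, a change of 0.41 ± 0.13 (adjusted p = 0.0182). On spike-in scaling the AHNAK change was 0.22 and the KIAA1549L change -0.19, neither called, and limma-voom did not call AHNAK. Spike-in scaling called in DMSO the changes of 6-day Kelly, at -0.98 for AHNAK and -0.44 for KIAA1549L, and of 3-day NGP, at -0.71 and -0.68, all of them falls. The genes called for these changes reached 6965 of 16759 and 4874 of 14661 among the alternatives of processing. Without the second 3 h DMSO library of NGP, which had the 47.6 CPM, the KIAA1549L change was 0.13, and without the first 6 h DMSO library it was 0.34 with an edgeR adjusted p of 0.155. On TMM scaling the shares of genes called in DMSO were 6.83%, 4.51%, 8.61% and 13.9%, and under STM2457 5.29%, 4.64%, 7.15% and 7.67%, in 3-day and 6-day Kelly and 3-day and 6-day NGP. Under STM2457 the 8 changes ranged from -0.29 to 0.19 on TMM scaling. Spike-in scaling put all 8 below 0 and called those of 6-day Kelly, at -0.36 for AHNAK and -0.48 for KIAA1549L, and scaling to long-lived transcripts called those of 3-day NGP, at -0.60 and -0.47. Among the alternatives the genes called for these changes reached 3767 of 16759 and 2833 of 14661.

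Within each treatment, AHNAK was lower at 6 than at 3 days in NGP. This comparison of 6 with 3 days, over the 3 and 6 h libraries, was added after the levels had been seen. In NGP, AHNAK fell by 2.20 ± 0.13 (log2, SE) in DMSO and by 1.90 ± 0.12 under STM2457, to 0.217 and 0.268 times the 3-day level (edgeR adjusted p 8.871e-26 and 3.814e-23). Only 2.52% and 3.43% of the genes tested had a lower value. In Kelly the AHNAK values were -0.079 ± 0.10 in DMSO and 0.11 ± 0.10 under STM2457, and neither passed. The difference between the lines was itself called, with log2 values of -2.12 ± 0.16 in DMSO and -2.00 ± 0.15 under STM2457 (adjusted p 1.095e-17 and 3.071e-17).

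KIAA1549L also fell between 3 and 6 days in NGP, but by less: by 0.32 ± 0.089 in DMSO (edgeR adjusted p = 0.00309) and by 0.54 ± 0.088 under STM2457 (1.124e-06). The DMSO value lost its call without the first 3-day (-0.24) or the second 6-day (-0.19) DMSO library at 3 h. In Kelly the KIAA1549L values were -0.10 ± 0.093 and -0.078 ± 0.091. The difference between the lines was -0.22 ± 0.13 in DMSO (adjusted p = 0.371) and -0.45 ± 0.13 under STM2457 (0.0168). The STM2457 call was lost without the first NGP library at 3 days and 6 h (adjusted p = 0.0521) or the second at 6 days and 6 h (0.0636). The DMSO value was called on spike-in scaling (-0.47), on long-lived scaling (-0.52) and without the first NGP DMSO library at 6 days and 3 h (-0.39). On TMM scaling the shares of genes called in either direction between 6 and 3 days were 21.2% (DMSO) and 4.55% (STM2457) in Kelly and 27.2% and 18.8% in NGP, and for the difference between lines 8.37% and 5.75%. For the difference between lines in DMSO the number called reached 2956 of 17343 among the alternatives of processing. The summed mesenchymal markers were 254 to 431 CPM at 3 days and 227 to 428 CPM at 6 days in NGP. They were 227 to 428 CPM in DMSO and 309 to 431 CPM under STM2457. Of the 8 markers, 6 had a median over 1 CPM in NGP and 4 in Kelly, and none was at 0 in every library. Their part in the AHNAK result was not tested.

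The lines were also compared directly in DMSO. At 3 days the level of AHNAK in NGP over 3 and 6 h differed from Kelly by 0.038 (log2, 95% interval -0.17 to 0.25), and at 6 days by -2.08 (-2.31 to -1.85, edgeR adjusted p = 1.333e-25). For KIAA1549L these values were 0.20 (0.018 to 0.38, adjusted p = 0.0668) and -0.019 (-0.20 to 0.16). On spike-in scaling the 3-day differences were called for both genes, at 0.34 for AHNAK (edgeR adjusted p = 0.00396) and 0.51 for KIAA1549L (4.678e-06), and that of AHNAK at 6 days was -2.03. The KIAA1549L difference at 3 days was also called on long-lived scaling (0.29), in the fit on 1 duration (0.20) and without the second NGP DMSO library at 3 h (0.27), and at 6 days on long-lived scaling (-0.23). In these comparisons 45.3% and 45.6% of all genes were called. By mean AHNAK level at 0 h, the order in DMSO was 6-day Kelly (74.4 ± 3.11 CPM), 3-day Kelly (61.8 ± 1.15 CPM), 3-day NGP (48.7 ± 1.61 CPM) and 6-day NGP (11.2 ± 1.28 CPM; SD, n = 2). Under STM2457 the first 3 could not be told apart by their spread, at 104 ± 10.2, 104 ± 8.22 and 106 ± 2.57 CPM, and 6-day NGP was at 40.8 ± 1.58 CPM.

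The relatives and partners of the 2 genes were then examined over the 3 and 6 h libraries. KIAA1549, the relative of KIAA1549L, rose under STM2457 in all 4 conditions, by 0.36 ± 0.07, 0.46 ± 0.07, 0.48 ± 0.07 and 0.50 ± 0.07 (log2, SE; edgeR adjusted p 1.083e-05, 7.256e-09, 3.692e-08 and 1.848e-08). It had also been called in all 4 at 0 h, so this is the same measure in other libraries. Of the 8 tested partners and relatives of AHNAK, 0 rose in each condition and 2, 1, 0 and 1 fell in edgeR. At an unadjusted p under 0.05 there were 3, 2, 1 and 3 in either direction, DESeq2 called 2, 1, 1 and 1, and limma-voom 2, 1, 0 and 1. Of all genes, 5.96%, 8.03%, 8.38% and 8.31% were called higher and 7.69%, 5.98%, 10.6% and 7.30% lower in these comparisons. On spike-in scaling 1, 0, 1 and 0 of the list were higher and 1, 0, 0 and 1 lower. The percentages above are for TMM, here and for the lists below. Spike-in scaling called 5174 of all 16759 genes in 6-day Kelly and 4248 of 14661 in 6-day NGP, most of them higher. At 3 days, no alternative called more than 3148 genes in Kelly or 3267 in NGP. PLCG1, a phospholipase that AHNAK is known to activate, fell by 0.20 ± 0.07 in Kelly at both durations, a call lost on spike-in scaling, where the values were 0.01 and 0.12. DYSF, a muscle membrane repair protein, fell by 1.42 ± 0.44 in 3-day Kelly and by 2.43 ± 0.40 in 6-day NGP. The list's median log2 values were 0.32, -0.26, 0.11 and -0.45, against 0.060, 0.015, -0.0037 and 0 over all genes.

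Of 20 large proteins that link the cytoskeleton, 1 rose and 3 fell in 3-day Kelly, 8 rose and 0 fell in 6-day Kelly, 4 rose and 2 fell in 3-day NGP, and 9 rose and 2 fell in 6-day NGP. Their medians were -0.0074, 0.15, -0.0015 and 0.12. Of all genes, 5.96%, 8.03%, 8.38% and 8.31% were called higher and 7.69%, 5.98%, 10.6% and 7.30% lower in these comparisons. On spike-in scaling 11, 16, 7 and 15 of the 20 rose and 0, 0, 0 and 1 fell, so the split between directions depended on the scaling. That scaling also called more of all genes at 6 days, 5174 of 16759 in Kelly and 4248 of 14661 in NGP, most of them higher. The genes named next each rose in 3 or 4 conditions and do not stand for the list. MAP1B, a microtubule-binding protein of neurons, rose in all 4 conditions, by 0.18 ± 0.03, 0.41 ± 0.03, 0.16 ± 0.02 and 0.14 ± 0.02. MAP1A, its relative, was at 0.06 ± 0.07 in 3-day Kelly and rose by 1.08 ± 0.07, 0.49 ± 0.10 and 0.43 ± 0.10 in the others. NES, the intermediate filament protein nestin, rose by 0.48 ± 0.05 in 6-day Kelly and by 0.18 ± 0.05 and 0.27 ± 0.05 in NGP.

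Mesenchymal neuroblastoma genes, a list of 20, gave 0 called of 19 tested in 3-day Kelly with edgeR and a median of 0.38. At an unadjusted p under 0.05 there were 3, and DESeq2 and limma-voom called 1 each. In 6-day Kelly 1 rose and 4 fell, in 3-day NGP 4 rose and 2 fell of 17, and in 6-day NGP 4 rose and 3 fell. Of all genes, 5.96%, 8.03%, 8.38% and 8.31% were called higher and 7.69%, 5.98%, 10.6% and 7.30% lower in the 4 conditions. On spike-in scaling 4, 2, 4 and 4 of the list were higher and 0, 1, 1 and 1 lower, so this split also depended on the scaling. Of all genes, 5174 of 16759 were then called in 6-day Kelly and 4248 of 14661 in 6-day NGP, most of them higher. FN1, fibronectin, rose by 0.66 ± 0.09 in 6-day Kelly and by 0.39 ± 0.08 and 0.38 ± 0.08 in NGP. COL1A1, a collagen chain, fell by 1.03 ± 0.21 in 6-day Kelly and by 0.63 ± 0.09 and 0.99 ± 0.09 in NGP. The members of this list did not move one way on TMM scaling.

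On TMM scaling, over 3 and 6 h, the typical long gene was near 0. Of genes with over 10 kb of exon, 9.16%, 12.2%, 10.5% and 10.7% were called higher under STM2457 in the 4 conditions, against 5.96%, 8.03%, 8.38% and 8.31% of all genes, and 8.04%, 7.48%, 11.3% and 9.44% were called lower, against 7.69%, 5.98%, 10.6% and 7.30% of all genes. Over 3 and 6 h the long genes were above the background in both directions, in some cases by little, and their median log2 values were 0.065, 0.022, 0.019 and 0.0033. At 0 h, 1.88%, 4.32%, 3.70% and 6.44% of them were called higher, against 0.579%, 2.70%, 1.25% and 4.45% of all genes. Called lower at 0 h were 0.966%, 1.58%, 2.25% and 4.13%, against 1.10%, 1.26%, 2.45% and 3.55%, so below the background at 3 days. The background includes the long genes, and fragment number was not matched between the 2 sets. Among the 20 other genes with the longest single exon, 3, 3, 3 and 6 rose and 0, 1, 1 and 1 fell over 3 and 6 h. Of these, C12orf45 rose in all 4 conditions, by 0.56 ± 0.11, 0.35 ± 0.11, 0.53 ± 0.10 and 0.38 ± 0.10. SRGAP1, with a longest exon of 19923 bases, rose in 3, by 0.82 ± 0.18 and 0.75 ± 0.18 in Kelly and by 0.40 ± 0.10 in 6-day NGP. Among the 20 other genes with the longest exon sequence in all, 2, 4, 3 and 6 rose and 1, 2, 1 and 2 fell. On spike-in scaling the counts that rose were 7, 8, 6 and 11 for the first list and 11, 12, 6 and 12 for the second. With that scaling 5174 of all 16759 genes were called in 6-day Kelly and 4248 of 14661 in 6-day NGP, most of them higher.

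The genes near the 2 on chromosome 11 were counted as well. Within 250 kb of AHNAK, 1 of 25 and 1 of 25 tested genes rose in 3-day and 6-day Kelly and 0 of 24 and 2 of 24 in NGP, while 2 fell in each condition. Of all genes, 5.96%, 8.03%, 8.38% and 8.31% were called higher and 7.69%, 5.98%, 10.6% and 7.30% lower. On spike-in scaling 1, 7, 1 and 7 of the AHNAK neighbours were higher and 1 lower in each of the 4 conditions. The percentages above are for TMM. On spike-in scaling 5174 of all 16759 genes were called in 6-day Kelly and 4248 of 14661 in 6-day NGP, most of them higher. The 7 neighbours in each of these are therefore not read as a local excess. UBXN1 (chr11:62676498-62679117) fell in all 4, by 0.74 ± 0.09, 0.28 ± 0.09, 0.45 ± 0.07 and 0.47 ± 0.07, of which the Kelly value at 6 days was 0.04 on spike-in scaling. Of the 5 tested neighbours of KIAA1549L none was called in any condition by edgeR, DESeq2 or limma-voom, and 0, 0, 0 and 1 had an unadjusted p under 0.05, while spike-in scaling called 1, 0, 0 and 2 higher. The values for HIPK3, the nearest at 19.06 kb, were 0.16 ± 0.11, -0.21 ± 0.11, 0.07 ± 0.12 and 0.18 ± 0.12.

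The pattern of each gene over the 24 group means, centred within each line, was compared with that of the other 17342 genes of the joint fit as a description. The closest to AHNAK were SYNPO2 (Pearson r = 0.95), ALK (0.91), MACF1 (0.91), ATF7IP (0.91) and FGD5 (0.89), where FGD5 was at 0.57 when the 48 libraries were used in place of the means. From 3 to 6 days in NGP in DMSO, SYNPO2 and ALK changed by -1.93 and -1.85 (log2, over 3 and 6 h). In 3-day Kelly the STM2457 difference of SYNPO2, ALK and MACF1 was not called, while that of ATF7IP and FGD5 was. The closest to KIAA1549L were CNP (0.88), KIAA1549 (0.87), SULF2 (0.87), TUBB2B (0.86) and SCARA3 (0.86). Over the 48 libraries CNP was at 0.80 and not among the 5 closest. AHNAK and KIAA1549L correlated at 0.79 with each other. The points share libraries and treatments, so these values carry no test.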

How the data were processed

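Poly(A) RNA of 48 libraries was sequenced in pairs. Per the submitters' processing notes, the authors used GRCh38 (hg38), HISAT2 2.1.0, Trimmomatic 0.36, Subread 1.5.3 and FastQC 0.11.5, listed without order. Per the file headers, the authors deposited unnormalized fragment counts, summed by gene name over the exons of protein-coding GENCODE 33 genes and ERCC spike-ins, made by featureCounts 1.5.3 with no strand or multi-mapping option. Groups came from the sample titles. Counts were fitted with edgeR 4.0.16 in R 4.3.3 (quasi-likelihood, TMM, trended dispersion, filterByExpr with at least 10 counts and a total of 15) on all 24 libraries of a line (16759 genes in Kelly, 14661 in NGP), or on all 48 for comparisons between lines (17343 genes), with Benjamini-Hochberg adjustment over all genes tested and a threshold of 0.05. SE is the log2 value divided by the root of the F statistic. ERCC counts stayed out of library sizes. Exon lengths were merged from the listed intervals, and sequences were read from the hg38 reference with GENCODE 44 coding segments. Scripts were tested on simulated data. Alternatives were other scalings, no filter, DESeq2 1.42.0, limma-voom 3.58.1, fits on 1 duration, a replicate term, removal of a length trend and leaving out each library. The fit without 0 h libraries, and the comparisons of 6 with 3 days and of decay between lines, were added after seeing the data. The members and lists were chosen with earlier results of these data known. Apart from both genes, the genes named are up to 4 per list with the smallest p over 3 and 6 h in any condition, or called in all 4, and the 5 most alike in pattern. Not all of them are described.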

Additional observations from a re-analysis of the deposited data

Results flagged for a closer look

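AHNAK changed between 3 and 6 days differently in the 2 lines. The log2 difference of 6 from 3 days was lower in NGP than in Kelly, by a value of -2.12 ± 0.16 (SE) in DMSO and -2.00 ± 0.15 under STM2457 (edgeR adjusted p 1.095e-17 and 3.071e-17), over the 3 and 6 h libraries. All 8 NGP libraries at 6 days and these times were below all 8 at 3 days. The share of all genes separated in this way was not counted.

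For KIAA1549L the same difference between lines was -0.45 ± 0.13 under STM2457 (edgeR adjusted p = 0.0168). It lost its call without the first NGP STM2457 library at 3 days and 6 h (-0.42, adjusted p = 0.0521) or without the second at 6 days and 6 h (-0.41, adjusted p = 0.0636).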

How the results depend on the processing

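The 8 differences between STM2457 and DMSO over 3 and 6 h kept direction and call in all 152 alternative values, with AHNAK at 0.73 to 0.99, 0.90 to 1.30, 0.88 to 1.09 and 1.16 to 1.49 and KIAA1549L at 0.61 to 0.85, 0.61 to 0.98, 0.75 to 0.96 and 0.48 to 0.84 (log2; 3-day and 6-day Kelly, 3-day and 6-day NGP). Of 872 values for 40 main results, 858 kept their side of the threshold and, where called, their direction; values near 0 that were not called turned sign more often. Spike-in scaling turned, among others, these KIAA1549L values: 0 to 6 h in 3-day Kelly in DMSO (-0.20) and STM2457 (-0.70), 3 to 6 h (-0.44) and 0 to 6 h (-1.02) in DMSO in 6-day Kelly, 0 to 3 h under STM2457 there (-0.10), the difference between treatments from 0 to 6 h there (0.44), and 3 to 6 h (-0.19) and 0 to 6 h (-0.81) in DMSO in 6-day NGP. It likewise turned AHNAK from 0 to 3 h in DMSO in 3-day NGP (-0.20) and from 0 to 6 h in DMSO in 6-day NGP (-0.68), and it also turned the AHNAK difference between treatments from 3 to 6 h in 3-day Kelly (-0.30) and 3-day NGP (0.31) and from 0 to 6 h in 3-day Kelly (-0.30), and its change from 3 to 6 h under STM2457 in 3-day Kelly (-0.092) and 6-day NGP (-0.23). Scaling to 19 long-lived transcripts gave -0.56, -0.61, -0.45, -0.39 and -0.58 for KIAA1549L (0 to 6 h in 3-day Kelly in DMSO and STM2457, 0 to 6 h in DMSO and 0 to 3 h under STM2457 in 6-day Kelly, 0 to 6 h in DMSO in 6-day NGP) and -0.29 and -0.45 for AHNAK. Both scalings keep a loss shared by all genes, which TMM removes. Spike-in scaling also gave calls for KIAA1549L in the difference from 3 to 6 h in 3-day Kelly (-0.60), its difference between lines at 3 days (1.01) and the difference between lines of 6 from 3 days in DMSO (-0.47, and -0.52 on long-lived scaling). For the last 2 of these, the genes called reached 3622 and 2956 of 17343 among the alternatives. DESeq2 called AHNAK from 3 to 6 h in 6-day NGP (-0.77) and between lines (-1.13); the cause was not tested. Leaving out 1 library gave, for KIAA1549L, -0.00072 to 0.26 for the difference from 0 to 6 h in 3-day NGP, -0.52 to 0.11 for 0 to 3 h in DMSO and -0.75 to -0.12 for the difference from 3 to 6 h in 6-day NGP, -0.50 to -0.19 for 6 against 3 days in DMSO in NGP, and -0.39 to -0.080 (DMSO) and -0.50 to -0.41 (STM2457) for its difference between lines. For AHNAK it gave -1.29 to -0.89 for the difference between lines from 3 to 6 h at 6 days. Of 362 counts of called genes, 64 moved by over 1.5 times, 22 of them on spike-in scaling. Genes called over 3 and 6 h numbered 2347 in 6-day Kelly and 2288 in 6-day NGP, and 5174 and 4248 on spike-in scaling (long-lived scaling 3496 in 6-day NGP). Genes called for the difference from 3 to 6 h numbered 15, 15, 13 and 210, against 2320, 443, 1070 and 1329 on spike-in scaling and 99, 62, 39 and 364 with DESeq2. The 2320 belong to 3-day Kelly, where the spike-in scaled median in DMSO rose from 63.5% of 0 h at 3 h to 71.1% at 6 h. In 3-day Kelly the fit on 1 duration gave 0 with edgeR, with 1289 at an unadjusted p under 0.05. Same-numbered DMSO and STM2457 libraries of a line, duration and time did not deviate together (12 correlations from -0.014 to 0.018). The numbers thus gave no sign of pairing between treatments. Pairing between the actinomycin D times was not checked. With the replicate number as a block the AHNAK differences over 3 and 6 h were 0.78, 0.98, 0.96 and 1.26, no call of either gene changed, and the count in 3-day Kelly for 3 to 6 h was 27. The lowest depth behind a value was 124 AHNAK fragments in an NGP DMSO library at 6 days.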
